A study of Homo sapiens with 24 samples.

Results

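The experiment compared SKOV3 cells that overexpress c-Fos with control SKOV3 cells, both grown in culture, on 6 of the 24 arrays of the series. Members were the arrays titled as c-Fos or control SKOV3 cells, 3 in each group. SKOV3 is an established human ovarian cancer cell line. The c-Fos cells were stable clones transfected with the plasmid c-Fos-pIRES-P, in which the full c-Fos cDNA sits in a bicistronic vector. The control cells carry the genotype label Control and are called SKOV3-NC in the protocol, which does not say what they were transfected with. Both groups grew in DMEM without phenol red, to which FCS, insulin, glutamine and antibiotics had been added. The number of clones is not given, and nothing in the labels says that the 3 arrays of a group came from separate cultures, so every p-value below measures only the spread between these arrays. The other 18 arrays hold tumours grown in the peritoneal cavity of SCID mice from SKOV3 cells of both kinds, and the same pair of groups for a second ovarian cancer line, OVCAR8, in culture and as tumours.

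c-Fos, the product of FOS, is a basic leucine zipper protein that binds DNA only together with a partner, usually a JUN protein. The dimer, AP-1, binds TGACTCA and related elements in promoters and enhancers and is best known as a factor that growth signals switch on within minutes. The search below used TGANTCA, in which N is any base, a wider pattern than TGACTCA. In ovarian cancer it has been studied for its part in adhesion, invasion and spread within the peritoneum.

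Each array gave a log2 level per gene, made by the authors with robust multi-array averaging (RMA), for 18417 genes. The array labelled c-Fos 1 stood apart from the rest. Its levels had a standard deviation of 1.22 over genes, against 1.92 on c-Fos 2, 1.99 on c-Fos 3 and 1.96 to 1.98 on the control arrays, and the other 23 arrays of the series lay between 1.82 and 2.01. It correlated with c-Fos 2 and 3 at r of 0.758 to 0.771 and with the controls at 0.732 to 0.742, while c-Fos 2 and 3 correlated with each other at 0.981 and the controls among themselves at 0.996 to 0.997, each across genes of the same array design. Genes with a level over 10 on c-Fos 2 and 3 read a median of 1.35 lower on c-Fos 1 (difference -1.35), and genes between 4 and 6 read 1.18 higher. The levels of c-Fos 1 were thus drawn in toward its middle. An even narrowing of the range would leave r unchanged, so with r of 0.758 to 0.771 c-Fos 1 differed in more than its range. The genes were fitted with all 6 arrays and again without c-Fos 1, which leaves 2 arrays against 3. Values are from the fit of all arrays unless the text says otherwise. All 6 arrays carry 1 date in the labels.

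**Figure D1:**
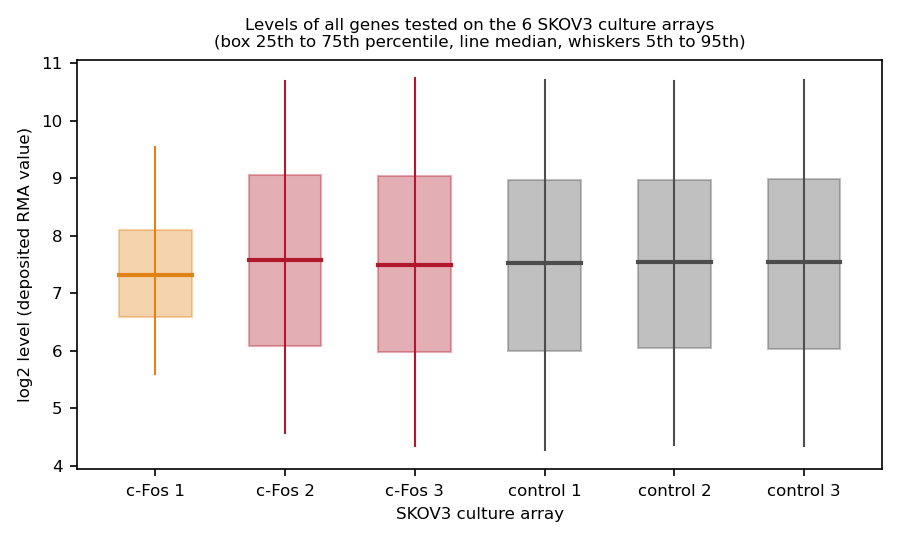
Distribution of log2 levels over all genes tested on each SKOV3 culture array, c-Fos arrays left of control arrays (box, 25th to 75th percentile, line, median, whiskers, 5th to 95th percentile). The median is 7.32 on c-Fos 1 and between 7.49 and 7.58 on the other 5 arrays, and the whiskers of c-Fos 1 run from 5.59 to 9.54 and those of c-Fos 2 from 4.58 to 10.69.

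The targeted gene was high in every c-Fos array. FOS had log2 levels of 10.36, 11.61 and 11.18 on c-Fos 1, 2 and 3, against 8.52, 8.70 and 8.66 on the control arrays. The groups did not overlap, and FOS stood at or above the 97.1th percentile of genes on each c-Fos array and between the 67.5th and 70.6th on the controls. The difference was 2.42 ± 0.36 (log2, SE, 3 against 3 arrays, 5.36-fold, limma adjusted p = 0.0165) and 2.77 ± 0.15 without c-Fos 1 (adjusted p = 1.79e-05). With c-Fos 1 kept and any other array left out, the difference stayed between 2.14 and 2.46 while the adjusted p lay between 0.074 and 0.128. The array signal does not separate transcript of the introduced cDNA from that of the cells' own FOS gene on chromosome 14, and in such bulk samples fewer cells of a kind and less RNA per cell cannot be told apart.

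Of the 15 AP-1 subunits tested, FOS was the 1 gene called at an adjusted p under 0.05 in the fit of 6 arrays. Without c-Fos 1, 3 were called higher and 1 lower, against 12.9% higher and 10.2% lower of all genes. JUN, the main partner of c-Fos, had levels of 8.99, 10.40 and 10.46 on the c-Fos arrays and 9.58, 9.54 and 9.64 on the controls, so c-Fos 1 lay below the controls and the other c-Fos arrays above them. Its difference of 0.36 (adjusted p = 0.642) became 0.84 ± 0.11 (adjusted p = 0.0012) without c-Fos 1. JUNB, a partner that activates more weakly than JUN, had 8.36, 9.36 and 8.76 on the c-Fos arrays and 9.88, 10.17 and 10.04 on the controls. All c-Fos arrays lay below the controls, with a difference of -1.20 (adjusted p = 0.168) and of -0.97 (adjusted p = 0.00876) without c-Fos 1. ATF3, a stress-induced subunit, was called without c-Fos 1 alone, at 0.39 (adjusted p = 0.042). The relatives FOSB (0.35), FOSL1 (0.22) and FOSL2 (-0.10) did not pass the test in either fit, and FOSL2 read 0.25 without c-Fos 1. JUND, ATF2, ATF4, BATF, BATF3, MAFF, MAFG and JDP2 were not called in either fit, with differences in the 6-array fit between -1.13 for MAFG and 0.85 for BATF.

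Across all genes, most calls were of genes lower in c-Fos cells when all 6 arrays were fitted, and somewhat more were of higher genes without c-Fos 1. With 6 arrays, 343 of 18417 genes were called (1.86%), 42 higher (0.228%) and 301 lower (1.63%) in c-Fos cells, all by at least 2-fold. Quantile normalization of the 6 arrays gave 117 higher and 373 lower, 23.9% higher against 12.2% as deposited. Array weights gave 65.5% higher, and a fit of all 24 arrays 49.5%. Without c-Fos 1, 4256 genes were called (23.1%), 2380 higher (12.9%) and 1876 lower (10.2%), that is 55.9% higher, and of these 369 and 720 changed by at least 2-fold. All 343 genes of the first fit were called in the second in the same direction, and all had groups that did not overlap, as had 5301 genes (28.8%) of all those tested. The count with c-Fos 1 kept was 95 without control 1, 98 without control 2, 98 without control 3, 142 without c-Fos 2 and 199 without c-Fos 3. Of the 4256 genes called without c-Fos 1, 2366 had a level on c-Fos 1 beyond all controls in the same direction. How often c-Fos 1 lay beyond all controls over all genes, in either direction, was not counted. The part of its narrow range in the 2366 was not tested.

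The largest falls were of genes among the most abundant of the control cells. The 301 called falls had a median percentile of 31.3 on the c-Fos arrays and of 78.1 on the controls, and c-Fos 1 alone put them at 26.9. CP, which encodes the plasma copper carrier ceruloplasmin, had levels of 5.82, 4.54 and 4.31 on the c-Fos arrays, against 12.35, 12.39 and 12.02 on the controls. That was the largest change of any gene, -7.36 ± 0.42 (adjusted p = 0.000556) and -7.83 without c-Fos 1. SPP1, for osteopontin, an acidic matrix protein that binds integrins, had 7.71, 5.68 and 5.21 in c-Fos cells and 12.72, 12.70 and 12.72 in controls (-6.51 ± 0.60, adjusted p = 0.00201). C3, the central complement component, had 6.28, 5.79 and 5.56 in c-Fos cells and 11.95, 12.10 and 11.86 in controls (-6.09 ± 0.29, adjusted p = 0.000406). For SPP1 as for CP, c-Fos 1 was the highest of the c-Fos arrays and still far below every control. PTGIS, the prostacyclin synthase, had 6.48, 6.51 and 6.27 in c-Fos cells and 12.39, 12.39 and 12.44 in controls, with the smallest adjusted p of all (-5.99 ± 0.24, adjusted p = 0.000265).

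The other genes among the 25 largest falls covered secreted, surface and metabolic proteins. VCAN, for the matrix proteoglycan versican, had 7.19, 6.74 and 6.00 in c-Fos cells, against 12.59, 12.45 and 12.55 in controls. SPARC, for a collagen-binding matrix protein, had 6.60, 6.04 and 5.74, against 11.36, 11.54 and 11.43 in controls. These differences were -5.89 for VCAN (adjusted p = 0.000556) and -5.32 for SPARC (adjusted p = 0.000556). Among these falls were genes of 5 surface proteins. CDH6, a cadherin of kidney and ovarian cancers, differed by -5.29, DPP4, a membrane peptidase, by -5.11, HAVCR1, a kidney injury receptor, by -5.00, the adhesion receptor ADGRF1 by -4.53 and the carbonic anhydrase CA12 by -4.33. In enzymes of aromatic and tryptophan breakdown the differences were -5.69 for KYNU, the kynureninase, -5.10 for IDO1, which opens the kynurenine route, and -4.50 for HGD, which cleaves homogentisate. CYP1B1, a cytochrome that oxidizes oestrogens, differed by -4.87, SULT1C2, a sulphotransferase, by -4.24 and SGPP2, a sphingosine phosphate phosphatase, by -4.55. MAL2, a protein of apical transport in epithelia, differed by -5.69, the protease inhibitor SLPI by -5.16, the secreted guidance cue SEMA3A by -5.15, the tooth enamel adhesion protein AMTN by -5.38, the cytokine IL1A by -4.71 and TMOD1, which caps actin filaments, by -4.62. All 25 were called in every fit that left out 1 array.

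The largest rises were smaller than the largest falls and mostly of genes low in control cells. The 42 called rises had a median percentile of 58.6 on the c-Fos arrays and 24.4 on the controls. ANKRD30B, an ankyrin repeat gene with no well-known role here, had 7.47, 7.18 and 9.45 in c-Fos cells and 3.83, 3.69 and 3.84 in controls (4.24 ± 0.57, adjusted p = 0.0111). FGF5, a secreted fibroblast growth factor, had 10.95, 11.11 and 11.70 in c-Fos cells and 7.82, 7.63 and 7.89 in controls (3.47 ± 0.29, adjusted p = 0.00128). IL7R, the interleukin 7 receptor chain, had 7.68, 8.87 and 9.44 in c-Fos cells and 5.07, 5.48 and 5.64 in controls (3.27 ± 0.46, adjusted p = 0.0134). LEF1, a nuclear effector of WNT signals, had 8.46, 9.41 and 9.73 in c-Fos cells and 6.49, 6.47 and 6.61 in controls (2.68 ± 0.36, adjusted p = 0.0115). In all of these the lowest c-Fos array stood more than 1 log2 unit above the highest control. ADM, for the vasodilator peptide adrenomedullin, had 10.33, 11.42 and 11.17 in c-Fos cells and 8.58, 8.55 and 8.78 in controls (2.34, adjusted p = 0.0156). Other rises were of the neuronal motor KIF5C (2.93), the gut protease TMPRSS15 (2.83), the ubiquitin ligase MARCHF4 (2.27), the granule proteoglycan SRGN (2.24), the coatomer subunit COPZ2 (2.21), the matrix protease ADAMTS1 (2.16), the actin nucleator FMN2 (2.07), the thyroid hormone deiodinase DIO2 (2.00), the adhesion molecules NCAM2 (1.88) and CDH10 (1.70), the metallothionein MT1E (1.85), the semaphorin SEMA3D (1.71) and the activin antagonist FST (1.70). All 24 were called without c-Fos 1, 18 with quantile normalization of the 6 arrays, and 4 of them were called without c-Fos 2, 12 without c-Fos 3 and 1, FGF5, without each of the controls in turn.

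A minority of interferon-stimulated genes and of genes that process antigen for MHC class I fell with all 6 arrays, and most were lower without c-Fos 1. Interferon-stimulated genes are the antiviral set that the STAT and IRF factors switch on through ISRE elements, and the same elements drive the class I pathway, in which the immunoproteasome cuts peptides, TAP carries them and beta-2 microglobulin completes the class I molecule. With 6 arrays, 0 of 52 interferon-stimulated genes were higher and 7 lower, against 1.63% of all genes lower. Without c-Fos 1, 2 were higher and 36 lower, against 10.2% of all genes lower. Of 14 class I processing genes, 4 were lower and 0 higher, and 11 were lower without c-Fos 1. The median difference was -0.99 for the interferon list (-0.92 without c-Fos 1) and -1.06 for the class I list (-0.91), against 0.09 (0.10) over all genes tested. The classical HLA genes themselves were not analysed here, since 7 of the 21 listed class I genes had no probe set with a single symbol.

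Promoter windows were searched for the ISRE, taken as GAAA, then any 2 bases, then GAAA, on either strand. The windows of 3 called genes of these lists are shown because they hold the element. They run from 250 bases before to 50 after the gene start (RefSeq, GRCh38.p14), and capitals mark the element.
LGALS3BP: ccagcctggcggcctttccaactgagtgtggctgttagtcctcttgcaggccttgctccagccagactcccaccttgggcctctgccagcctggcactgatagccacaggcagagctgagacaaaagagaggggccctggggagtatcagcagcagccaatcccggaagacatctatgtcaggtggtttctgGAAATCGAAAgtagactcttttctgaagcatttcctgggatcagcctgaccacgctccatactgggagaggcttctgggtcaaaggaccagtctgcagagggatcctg
TRIM21: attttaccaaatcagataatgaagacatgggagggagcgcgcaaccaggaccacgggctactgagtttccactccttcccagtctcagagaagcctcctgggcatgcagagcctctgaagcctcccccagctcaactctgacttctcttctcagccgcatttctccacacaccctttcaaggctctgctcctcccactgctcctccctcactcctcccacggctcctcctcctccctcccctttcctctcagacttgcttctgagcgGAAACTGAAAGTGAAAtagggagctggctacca
B2M: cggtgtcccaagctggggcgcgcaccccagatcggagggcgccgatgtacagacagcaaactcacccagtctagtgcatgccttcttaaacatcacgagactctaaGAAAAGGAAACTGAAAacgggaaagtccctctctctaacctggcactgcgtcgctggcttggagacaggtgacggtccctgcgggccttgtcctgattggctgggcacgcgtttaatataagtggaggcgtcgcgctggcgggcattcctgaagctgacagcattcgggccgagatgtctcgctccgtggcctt
LGALS3BP lies on the minus strand at chr17:78979874-78980173 with 1 element at position -58 from the gene start. TRIM21 lies on the minus strand at chr11:4393653-4393952 and holds 2 overlapping elements at 17 and 23. B2M lies on the plus strand at chr15:44711267-44711566 and holds 2 overlapping elements at -144 and -138. The window of GBP3, another called gene, holds 1 element at 2 and also 1 TGANTCA element. The element was found in 24 of 40 interferon-list windows (60%) and in 8 of 13 class I windows (61.5%), against 433 of all 14239 windows (3.04%). A match describes these letters only.

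The levels of the same genes were as follows. LGALS3BP, a secreted galectin-binding glycoprotein, had 6.28, 7.36 and 7.08 in c-Fos cells and 10.14, 10.51 and 10.31 in controls (-3.41 ± 0.34, adjusted p = 0.00283). TRIM21, a receptor for antibody inside cells, had 6.81, 6.13 and 6.37 in c-Fos cells and 7.92, 7.95 and 7.95 in controls (-1.50 ± 0.28, adjusted p = 0.0421). B2M, for beta-2 microglobulin, had 7.74, 8.56 and 8.94 in c-Fos cells and 10.95, 11.19 and 10.96 in controls (-2.62 ± 0.35, adjusted p = 0.0111). Every c-Fos array lay more than 1 unit below every control for these 3 genes, and c-Fos 1 was the lowest of the c-Fos arrays for LGALS3BP and B2M. Of the other called members, IFI35 differed by -2.84 (adjusted p = 0.00499), OAS1, an antiviral oligoadenylate synthetase, by -2.15 (adjusted p = 0.0067) and IFITM2, which blocks virus entry, by -1.97 (adjusted p = 0.0181). PSMB9 and PSMB8, catalytic subunits of the immunoproteasome, differed by -2.76 (adjusted p = 0.00184) and -1.96 (adjusted p = 0.0146). ERAP2, which trims peptides for class I molecules, had 5.74, 7.30 and 7.35 in c-Fos cells and 9.54, 9.65 and 9.56 in controls (-2.79 ± 0.45, adjusted p = 0.0242). With c-Fos 1 kept and 1 control left out, LGALS3BP, IFI35 and PSMB9 kept their calls while OAS1, IFITM2, B2M, ERAP2 and PSMB8 did not, with adjusted p of 0.0634 to 0.164 for OAS1 to IFITM2. Chosen after their values were seen, the members called higher without c-Fos 1 were BST2 (0.71) and IFIT5 (0.56).

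**Figure D2:**
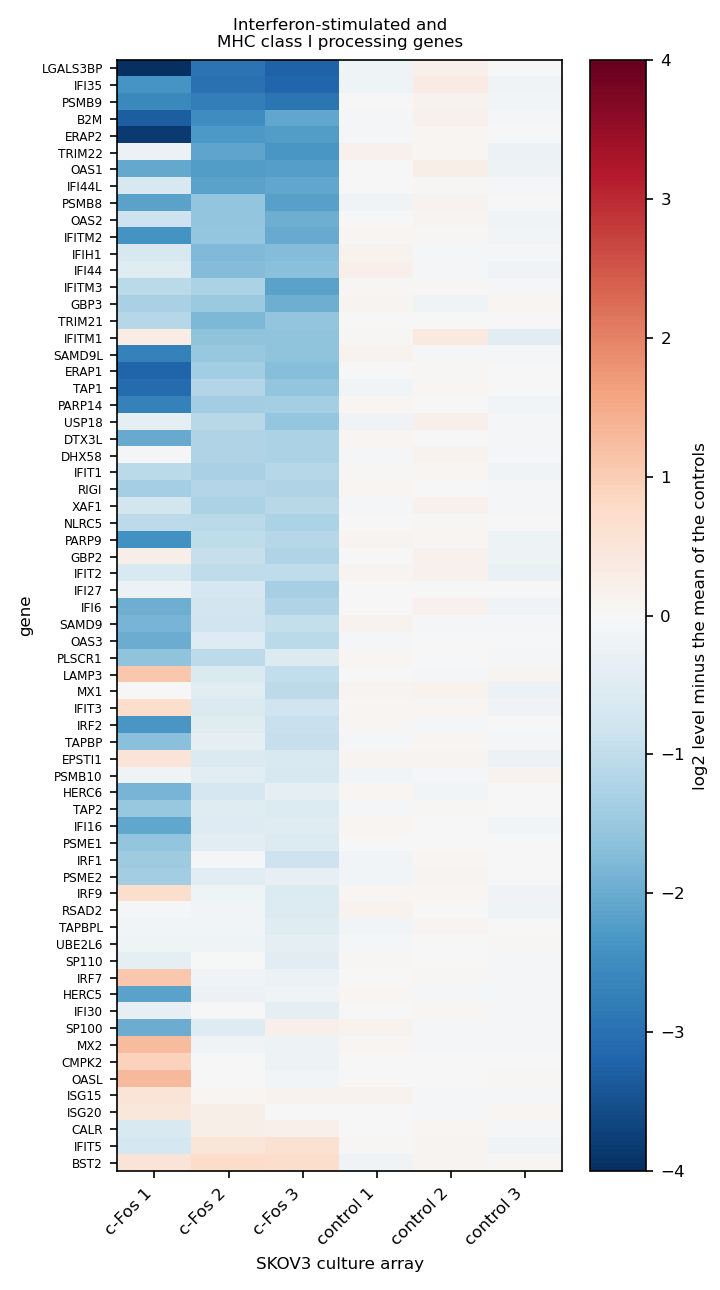
Log2 level minus the mean of the 3 control arrays for all 66 interferon-stimulated and class I processing genes tested (rows, ordered by the difference without c-Fos 1) on each SKOV3 culture array (columns), blue below and red above the controls. On both c-Fos 2 and c-Fos 3, 56 of the 66 genes lie below the control mean, and 52 do on c-Fos 1. The share of all genes below the control mean was not counted. Over all genes, those between 8 and 10 on c-Fos 2 and 3 differed by a median of -1.25 on c-Fos 1, and those between 6 and 8 by 0.36. The part of this narrowing in the count of 52 was not tested.

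Some genes of secreted inflammatory proteins also fell. Of 24 complement and acute phase genes 6 fell and 0 rose, and of 44 cytokine, chemokine and NF-kB target genes 8 fell and 0 rose; without c-Fos 1 the counts were 11 lower and 2 higher, and 17 lower and 1 higher. The shares of all genes called lower were 1.63% with 6 arrays and 10.2% without c-Fos 1, and the medians of these lists were -0.34 and -0.36 (-0.45 and -0.32 without c-Fos 1). Beside CP and C3, the acute phase protein SAA2 differed by -3.14 (adjusted p = 0.0109) and the protease inhibitor SERPINA1 by -2.64 (adjusted p = 0.0278). TNFSF10, the death ligand TRAIL, had 5.07, 5.09 and 5.06 in c-Fos cells and 9.00, 9.04 and 8.51 in controls (-3.77 ± 0.27, adjusted p = 0.000805). IL1B, a pyrogenic cytokine, had 6.24, 5.83 and 5.22 in c-Fos cells and 8.65, 8.81 and 8.72 in controls (-2.96 ± 0.32, adjusted p = 0.00432). SOD2, the mitochondrial superoxide dismutase, had 6.55, 7.71 and 8.32 in c-Fos cells and 10.94, 11.25 and 10.67 in controls (-3.43 ± 0.46, adjusted p = 0.0111). The c-Fos arrays lay close together for TNFSF10 and were widely spread for SOD2, and no gene of the 3 had groups that overlapped. TNFSF10 and IL1B were called whichever array was left out. SOD2 lost its call without each control and without c-Fos 2 (adjusted p up to 0.0785), SAA2 in 4 of 5 such fits (up to 0.0817) and SERPINA1 in all 5 (0.0914 to 0.174).

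Genes commonly listed as AP-1 targets moved both ways. Of 25 such genes, 3 fell and 0 rose with 6 arrays, and 8 were lower and 5 higher without c-Fos 1. The shares of all genes were 1.63% lower and 0.228% higher with 6 arrays, and 10.2% lower and 12.9% higher without c-Fos 1. The 3 that fell were SPP1, the interstitial collagenase MMP1 and the neutrophil chemokine CXCL8, all of which AP-1 is known to activate in other cells. MMP1 had 6.12, 5.78 and 6.12 in c-Fos cells and 9.16, 9.30 and 8.92 in controls (-3.12 ± 0.26, adjusted p = 0.00128). CXCL8 had 8.07, 8.98 and 9.12 in c-Fos cells and 10.39, 10.48 and 10.62 in controls (-1.77 ± 0.34, adjusted p = 0.0489), a call lost when any array but c-Fos 1 was left out (adjusted p = 0.0782 to 0.314). The 25 immediate early genes, which overlap this set only in part, held 1 rise, CCN1, a secreted matrix-associated protein, with 10.01, 10.76 and 10.72 in c-Fos cells and 8.46, 8.46 and 8.79 in controls (1.93 ± 0.31, adjusted p = 0.0223). Its call was lost when any array but c-Fos 1 was left out (adjusted p = 0.0861 to 0.188).

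TGANTCA elements were found in the windows of 7 of the 32 called rises that have one (21.9%) and of 21 of the 211 called falls (9.95%), against 795 of all 14239 windows (5.58%). Without c-Fos 1 they stood in 4.06% of the windows of called rises and 6.96% of those of called falls. Both windows below belong to called rises, and the element reads the same on both strands apart from its middle base. That base could be any in the search, and the match is TGATTCA in ANKRD1 and TGACTCA in DIO2.
ANKRD1: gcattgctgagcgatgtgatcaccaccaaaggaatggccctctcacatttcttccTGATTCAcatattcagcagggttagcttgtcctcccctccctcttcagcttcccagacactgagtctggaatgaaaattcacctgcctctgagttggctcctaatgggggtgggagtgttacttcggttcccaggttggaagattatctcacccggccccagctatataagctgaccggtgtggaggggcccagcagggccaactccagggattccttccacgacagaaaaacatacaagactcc
DIO2: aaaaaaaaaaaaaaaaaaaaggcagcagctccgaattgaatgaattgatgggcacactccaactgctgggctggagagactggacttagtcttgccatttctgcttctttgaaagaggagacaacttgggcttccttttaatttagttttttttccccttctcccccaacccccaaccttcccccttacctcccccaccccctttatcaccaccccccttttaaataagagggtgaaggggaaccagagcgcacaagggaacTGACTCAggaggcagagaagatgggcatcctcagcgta
The ANKRD1 window is on the minus strand at chr10:90921038-90921337 with the element at -195, and the DIO2 window on the minus strand at chr14:80211455-80211754 with the element at 12. Windows of TMPRSS15 and NDST4 held 1 element each, TGATTCA and TGAATCA. The share of windows with TGACTCA itself was not counted. ANKRD1, for a cardiac ankyrin repeat protein, had 7.44, 7.76 and 8.08 in c-Fos cells and 5.74, 5.36 and 6.08 in controls (2.03 ± 0.31, adjusted p = 0.0188), a call lost when any array but c-Fos 1 was left out (adjusted p = 0.0743 to 0.167).

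CCN1 and ANKRD1 are also the 2 rises among 32 target genes of YAP and TEAD, the effectors of Hippo signalling, of which 0 fell. Without c-Fos 1, 14 of the 32 were higher and 1 lower, against 12.9% higher and 10.2% lower of all genes. The list's median difference was then 0.41, against 0.10 over all genes. With 6 arrays the median was 0.08, against 0.09 over all genes, of which 0.228% were called higher. Chosen after its values were seen, TGFB2, a secreted growth factor of the list, had 8.44, 10.67 and 10.59 in c-Fos cells and 7.93, 7.91 and 8.10 in controls. Its difference was 1.92 (adjusted p = 0.242) with 6 arrays and 2.65 (adjusted p = 6.29e-06) without c-Fos 1, which lay much nearer to the controls than the other c-Fos arrays did.

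Matrix and protease genes changed both ways without c-Fos 1. Of 58 laminin, collagen and other matrix genes 13 fell and 0 rose, and 23 were lower and 13 higher without c-Fos 1. Of 58 matrix proteases and inhibitors 9 fell and 1 rose, ADAMTS1, and 18 were lower and 11 higher without c-Fos 1. Over all genes 1.63% were lower and 0.228% higher with 6 arrays, and 10.2% lower and 12.9% higher without c-Fos 1. Of 15 fibroblast markers 3 fell, COL1A1 (-1.99), FBLN1 (-1.44) and PDPN (-1.37), and 0 rose. Without c-Fos 1, 4 of the 15 were called higher, among them LUM, whose values are given below, and 4 lower. The list's mean level was 6.08 to 6.40 on the c-Fos arrays and 5.94 to 6.05 on the controls. Of the 15, 11 lay below the array median on the controls and on c-Fos 2 and 3. Its part in the matrix falls was not tested. MMP7, the small matrix metalloproteinase matrilysin, had 7.21, 4.92 and 4.81 in c-Fos cells and 9.71, 10.18 and 9.12 in controls (-4.02 ± 0.65, adjusted p = 0.0243). Its call was lost when any array but c-Fos 1 was left out (adjusted p = 0.0766 to 0.142). NID2, a basement membrane linker, differed by -3.83 (adjusted p = 0.00344), the tumour suppressor serpin SERPINB5 by -3.42 (adjusted p = 0.00184) and CPM, a membrane carboxypeptidase, by -3.41 (adjusted p = 0.000805). Picked after their values were seen among the rises called only without c-Fos 1 were the collagen-binding proteoglycan LUM and the carboxypeptidase CPA4. LUM had 5.68, 8.13 and 8.92 in c-Fos cells and 4.38, 4.83 and 4.52 in controls (3.00, adjusted p = 0.137, and 3.95, adjusted p = 2.76e-05, without c-Fos 1). CPA4 had 7.73, 9.99 and 9.97 in c-Fos cells and 6.73, 6.42 and 6.77 in controls (2.59, adjusted p = 0.103, and 3.34, adjusted p = 4.52e-06). In both genes all c-Fos arrays lay above all controls.

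Epithelial genes fell in part. Of 47 epithelial junction genes, 6 fell and 0 rose, and 17 were lower and 4 higher without c-Fos 1. For these and the lists below, the shares of all genes were 1.63% lower and 0.228% higher with 6 arrays. Without c-Fos 1 those shares were 10.2% lower and 12.9% higher. Beside MAL2, the epithelial transcription factors EHF and ELF3 and the tight junction protein CLDN1 were called. EHF had 6.51, 5.54 and 5.03 in c-Fos cells and 9.74, 9.47 and 9.31 in controls (-3.82 ± 0.40, adjusted p = 0.00371). ELF3 had 6.37, 6.38 and 6.01 in c-Fos cells and 9.48, 9.75 and 9.50 in controls (-3.32 ± 0.26, adjusted p = 0.000971). CLDN1 had 8.16, 8.67 and 8.36 in c-Fos cells and 12.07, 11.98 and 12.00 in controls (-3.62 ± 0.26, adjusted p = 0.000805). The groups lay at least 2 units apart for these 3 genes. Among 25 integrins 3 fell and 0 rose, namely ITGB6 (-2.16), ITGB8 (-2.13) and the hemidesmosome subunit ITGB4 (-1.54), all 3 of which lost their calls when 1 control was left out (adjusted p = 0.07 to 0.334). Among 42 mesenchymal genes and state regulators 2 fell, CDH6 and the calcium-binding protein S100A4 (-3.12, adjusted p = 0.00128), and 0 rose; 11 were higher and 9 lower without c-Fos 1. Semaphorin, ephrin and axon guidance genes held 6 falls and 1 rise of 63, with SLIT2, a secreted guidance ligand, at -3.54 (adjusted p = 0.000969) and NTNG1, a membrane-bound netrin, at -3.09 (adjusted p = 0.00128).

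Aldo-keto reductases and other genes that NRF2 controls, which defend cells against oxidants, held 6 falls and 0 rises of 46, and 19 were lower and 0 higher without c-Fos 1. Of all genes, 1.63% were lower with 6 arrays and 10.2% without c-Fos 1. AKR1C3, a steroid and prostaglandin reductase, had 6.08, 5.01 and 4.39 in c-Fos cells and 11.22, 11.32 and 11.02 in controls (-6.03 ± 0.43, adjusted p = 0.000805). AKR1C2, a close relative, had 7.33, 5.70 and 6.36 in c-Fos cells and 12.40, 12.48 and 12.36 in controls (-5.95 ± 0.42, adjusted p = 0.000805). The AKR1C genes are near-identical copies whose probes may read one another, so the values of the single copies are uncertain. SLC7A11, the cystine importer, had 7.18, 8.72 and 8.74 in c-Fos cells and 12.17, 11.89 and 12.03 in controls (-3.81 ± 0.45, adjusted p = 0.00643). The list's median was -0.76 with 6 arrays and -0.32 without c-Fos 1, against 0.09 and 0.10 over all genes.

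SKOV3 is known for amplified ERBB2, and ERBB2 and GRB7 were called lower in c-Fos cells without c-Fos 1. ERBB2, a growth factor receptor, had 9.37, 10.88 and 10.65 in c-Fos cells and 12.20, 12.26 and 12.24 in controls, while OVCAR8 cultures lay between 8.59 and 8.84. Its neighbour GRB7, an adaptor protein, had 7.23, 6.33 and 6.23 in c-Fos cells and 7.95, 7.71 and 7.82 in controls, and OVCAR8 cultures lay between 6.36 and 6.71. GRB7 on c-Fos 2 and 3 thus read below every OVCAR8 culture, and ERBB2 read above every one. ERBB2 differed by -1.93 (adjusted p = 0.0763) with 6 arrays and -1.47 (adjusted p = 0.000113) without c-Fos 1, and GRB7 by -1.23 (adjusted p = 0.175) and -1.54 (adjusted p = 9.7e-05). Of 21 genes of the ERBB2 amplicon 1 fell and 0 rose, PPP1R1B, a phosphatase inhibitor, at -2.40 (adjusted p = 0.00866, up to 0.0878 without 1 control), and 7 were lower and 0 higher without c-Fos 1. The amplicon list had a median of -0.66, or -0.31 without c-Fos 1, against 0.09 and 0.10 over all genes. Of all genes, 1.63% were called lower with 6 arrays and 10.2% without c-Fos 1. The epithelial keratins KRT7 (11.02, 11.97 and 11.82 in c-Fos cells, 10.14, 10.16 and 10.31 in controls), KRT8 and KRT18 and the ovarian lineage factor PAX8 (8.56, 10.18 and 9.65, against 10.77, 10.92 and 10.89) were high in both groups. Without c-Fos 1, KRT7 was called higher (1.69, limma adjusted p = 5.4e-05) and PAX8 lower (-0.94, adjusted p = 0.00573). CDH1, an epithelial junction gene, had 7.77, 6.18 and 5.59 in c-Fos cells and 7.73, 8.25 and 7.59 in controls. It differed by -1.34 (adjusted p = 0.456) with 6 arrays and -1.97 (adjusted p = 0.000917) without c-Fos 1. KRT19, EPCAM, WT1 and MUC16 lay below the array median on the controls and on c-Fos 2 and 3. The leukocyte list had a mean level of 5.74 to 6.94 on the c-Fos arrays, highest on c-Fos 1, and 5.69 to 5.82 on the controls, with 0 of 17 genes called in the 6-array fit. Of 14 endothelial markers 2 fell, PECAM1 (-1.65) and KDR (-1.46), with a mean level of 6.01 to 6.95 on the c-Fos arrays and 6.37 to 6.44 on the controls. Of 7 mesothelial markers PDPN fell, and the mean level was 6.49 to 7.59 on the c-Fos arrays and 6.93 to 6.99 on the controls. The part of these markers in any result was not tested.

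Among the 68 cell cycle and DNA replication genes 0 were called with 6 arrays, and 9 were higher (13.2%) and 7 lower (10.3%) without c-Fos 1, close to the 12.9% and 10.2% of all genes. Ribosomal protein genes likewise gave 0 of 35, and 2 higher and 2 lower without c-Fos 1. Over all genes 1893 had an unadjusted p under 0.05 with 6 arrays.

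**Figure D3:**
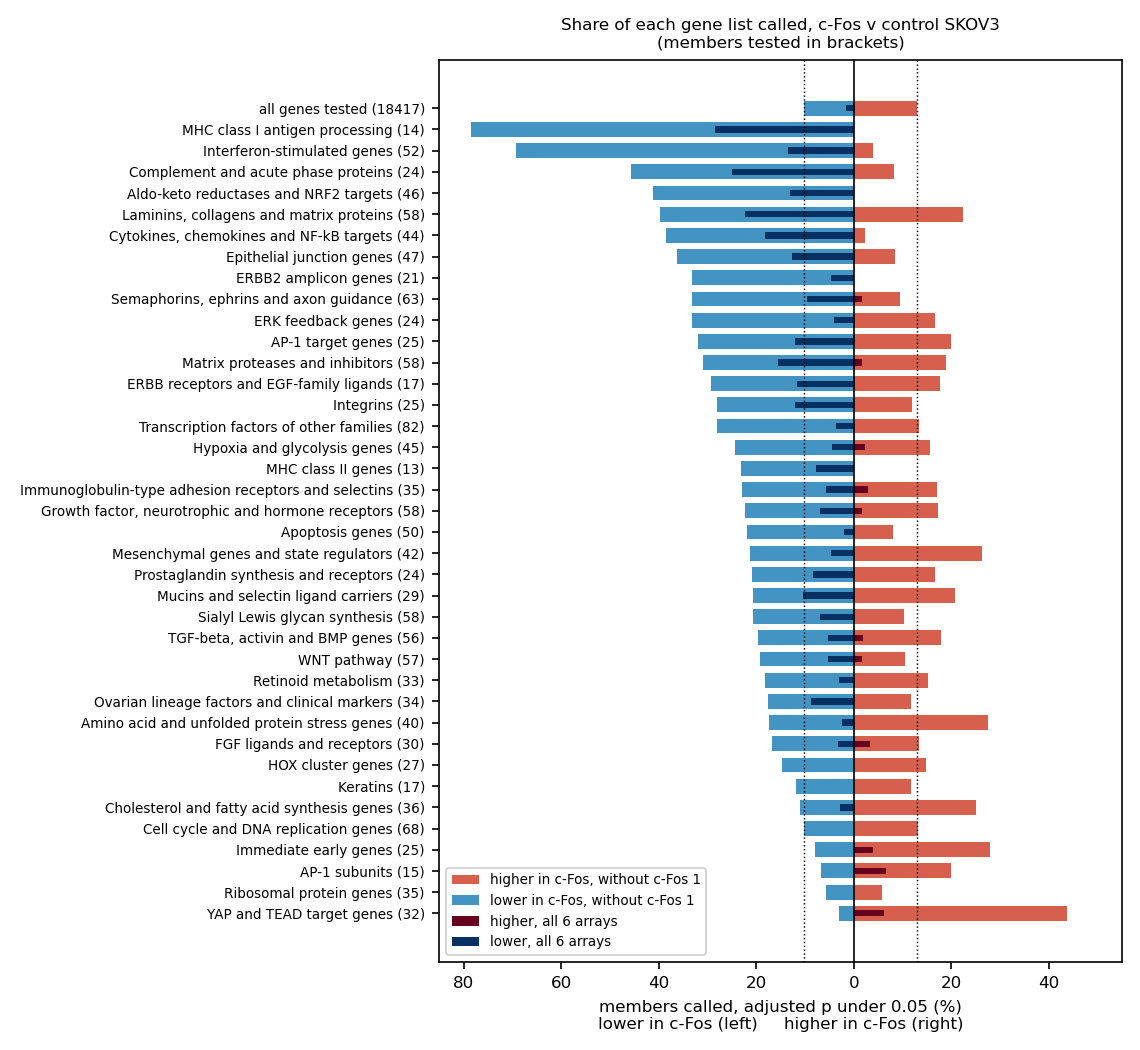
Share of each list's tested members called lower (left, blue) or higher (right, red) in c-Fos SKOV3 cultures, wide bars without c-Fos 1 and narrow dark bars with all 6 arrays; dotted lines mark the share of all genes called without c-Fos 1 (10.2% lower, 12.9% higher). The class I processing and interferon lists have the longest bars to the left and the YAP and TEAD list the longest to the right.

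Called genes were unevenly spread over chromosomes in the fit without c-Fos 1. Without c-Fos 1, 122 of the 317 genes of chromosome 13 were called higher (38.5%) and 15 lower (4.73%). Chromosome 15 had 14 of 576 genes called higher (2.43%) and 158 lower (27.4%), and chromosome 22 had 7 of 423 higher (1.65%) and 76 lower (18%). The share over all genes was 12.9% higher and 10.2% lower. Chromosomes 3 and 19 each had 21.8% of their genes called higher, with 10.6% and 3.59% lower. With all 6 arrays the counts were 1 higher and 3 lower on chromosome 13, 0 and 18 on chromosome 15, and 0 and 5 on chromosome 22. The uneven calls of chromosomes 13 and 22 were thus seen only without c-Fos 1. The median difference with 6 arrays was 0.30 for chromosome 13, 0.28 for chromosome 19, -0.30 for chromosome 15 and -0.07 for chromosome 22, against 0.09 over all genes. Set against the control mean and against all genes of the same array, the median gene of chromosome 15 lay at -0.41, -0.30 and -0.25 on c-Fos 1, 2 and 3 and at 0.00 on each control. The median gene of chromosome 13 lay at 0.01, 0.21 and 0.31 on the c-Fos arrays and at 0.03, -0.02 and 0.00 on the controls. For chromosome 22 the c-Fos arrays had 0.01, -0.14 and -0.26, and the controls -0.03, 0.02 and 0.01. The shift of chromosome 15 was thus present on all c-Fos arrays and that of chromosomes 13 and 22 on c-Fos 2 and 3 but not on c-Fos 1. B2M, which fell, lies on chromosome 15.

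**Figure D4:**
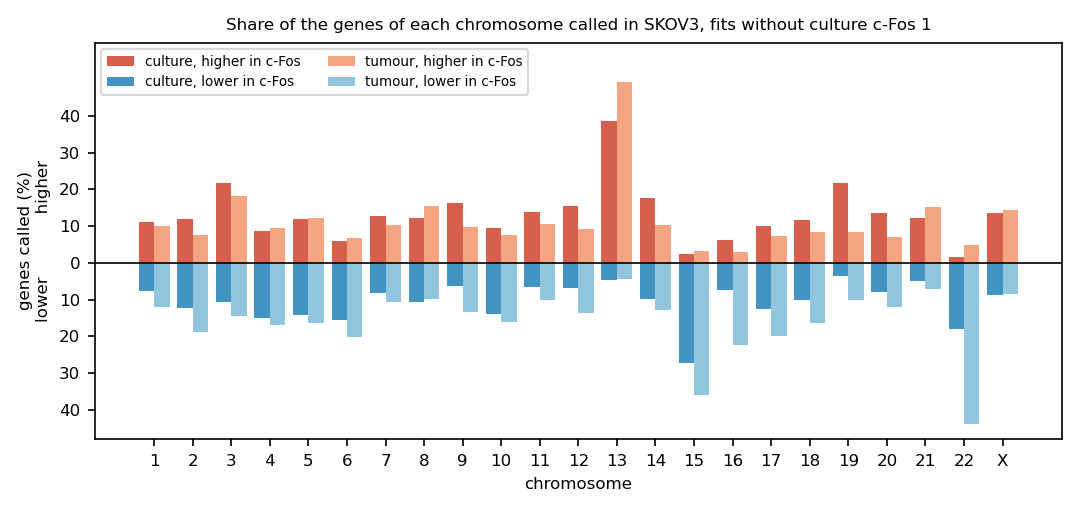
Share of the genes of each chromosome called higher (above 0) or lower (below 0) in c-Fos cells, dark bars SKOV3 cultures, light bars SKOV3 tumours, both without culture array c-Fos 1. Chromosome 13 has the tallest bars upward in cultures (38.5%) and tumours (49.2%), and chromosomes 15 and 22 have the longest downward in tumours (35.9% and 44%).

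The same contrast was tested in tumours grown from SKOV3 cells of both kinds, in 1 fit of 12 SKOV3 arrays. The sizes and signs of the tumour differences rest on the tumour arrays alone. The spread in this fit was taken from culture and tumour arrays together. Tumour calls of genes selected in culture thus rest in part on the same culture arrays. The tumour contrast gave 1313 called genes (7.13%), 382 higher (2.07%) and 931 lower (5.06%). Without culture array c-Fos 1 it gave 4718 (25.6%), 1878 higher (10.2%) and 2840 lower (15.4%). Of the 42 genes that rose in culture, 39 had a difference above 0 in tumours, as had 53.7% of all genes, and 22 were called higher and 1 lower. Of the 301 that fell, 273 had a difference below 0, as had 46.3% of all genes, and 204 were called lower and 5 higher. Without culture array c-Fos 1 these calls were 30 and 1 of the rises, and 231 and 8 of the falls. The chromosome shifts recurred there. The median gene of chromosome 13 lay at 0.54, 0.50 and 0.36 on the c-Fos tumours and at 0.08, -0.04 and -0.07 on the control tumours. Chromosome 15 lay at -0.27, -0.33 and -0.36 on c-Fos tumours and 0.02, 0.00 and -0.03 on controls, and chromosome 22 at -0.37, -0.32 and -0.37 on c-Fos tumours and -0.06, 0.03 and 0.04 on controls. The mice were injected with SKOV3-c-Fos and SKOV3-NC cells, so the tumours may share clones with the cultures.

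FOS differed by 2.65 ± 0.32 in SKOV3 tumours (adjusted p = 0.000172), and the culture effect minus the tumour effect was -0.23 ± 0.45 (adjusted p = 0.861). For 163 genes (0.885%) the difference of effects was called, with the culture effect higher for 68 (0.369%) and lower for 95 (0.516%). Without culture array c-Fos 1 the count was 1325 (7.19%), of which 868 were higher (4.71%) and 457 lower (2.48%). ADM was higher in c-Fos cultures and lower in c-Fos tumours, at 9.95, 9.70 and 9.53 in c-Fos tumours and 10.71, 10.78 and 11.22 in control tumours. Its culture effect exceeded the tumour effect by 3.51 ± 0.40 (adjusted p = 0.000858). PTGIS stayed high in tumours of both kinds, at 10.64, 10.03 and 10.55 in c-Fos tumours and 11.01, 11.02 and 11.08 in control tumours, a difference of effects of -5.36 ± 0.29 (adjusted p = 1.54e-06). AMTN was low in tumours of both kinds, with a mean of 4.46 ± 0.29 in c-Fos tumours and 4.25 ± 0.15 in control tumours (SD, n = 3 each), and a difference of effects of -5.60 ± 0.45 (limma adjusted p = 4.97e-05). The interferon list had 5 genes called higher and 9 lower in tumours, with a median difference of 0.00, and 6 of its 52 genes had a culture effect called lower than the tumour effect, 0 higher. Without culture array c-Fos 1 the tumour counts were 11 higher and 16 lower, and the differences 13 lower and 1 higher. Of the class I list 2 were lower in tumours and 0 higher, and 10 were lower and 0 higher without culture array c-Fos 1. Of all genes, 2.07% were higher and 5.06% lower in tumours. Without culture array c-Fos 1 these shares were 10.2% and 15.4%.

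OVCAR8 cultures gave 461 called genes (2.5%) in 1 fit of the 12 culture arrays, 144 higher (0.782%) and 317 lower (1.72%). The spread in that fit came from SKOV3 and OVCAR8 arrays together, so these calls rest in part on the SKOV3 arrays. Without SKOV3 array c-Fos 1 the count was 5533 (30%), 2921 of them higher (15.9%) and 2612 lower. The 2 OVCAR8 groups carry different dates in the labels, so group and date cannot be told apart there. FOS differed by 2.09 ± 0.26 in OVCAR8 (adjusted p = 0.00131), and the SKOV3 effect minus the OVCAR8 effect was 0.33 ± 0.37 (adjusted p = 0.559), or 0.68 ± 0.17 (adjusted p = 0.00785) without c-Fos 1. Of the 42 rises of SKOV3 cultures, 5 were called higher and 7 lower in OVCAR8, and of the 301 falls 53 were called lower and 10 higher. Without c-Fos 1 the counts were 8 higher and 12 lower of the rises, and 116 lower and 33 higher of the falls. The 8 were 19% of the rises, close to the 15.9% of all genes called higher in that fit. The 116 were 38.5% of the falls, and 2612 of all 18417 genes were called lower. The effects of 909 genes (4.94%) differed between the lines, with the SKOV3 effect higher for 339 (1.84%) and lower for 570 (3.09%), and 6362 (34.5%) did so without c-Fos 1. LEF1 rose in SKOV3 and fell in OVCAR8, at 6.18, 6.20 and 6.23 in OVCAR8 c-Fos cells and 8.12, 7.96 and 8.01 in OVCAR8 controls, a difference of effects of 4.50 ± 0.37 (adjusted p = 3.03e-05). FGF5 had 7.46, 7.28 and 7.59 in OVCAR8 c-Fos cells and 8.41, 8.34 and 8.66 in OVCAR8 controls, also 4.50 ± 0.29 (adjusted p = 8.74e-06). MARCHF4, VCAN and MAL2 moved the same way in both lines: in OVCAR8 they differed by 2.74 (adjusted p = 2.16e-05), -2.88 (adjusted p = 0.000142) and -2.91 (adjusted p = 8.21e-05). CP, SPP1 and C3 were low in OVCAR8 cells of both kinds, with means of 4.58, 5.55 and 6.13 in c-Fos cells and 4.31, 5.31 and 6.11 in controls.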

How the data were processed

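RNA of each sample (Qiazol, per the labels' protocols) was measured on 1 array. The deposited values are log2 levels per probe set, and the submitters' processing notes name RMA and Affymetrix Expression Console. Neither a version nor a genome build is given in the sources used here. No further normalization was applied to the values. RMA usually sets arrays to one distribution, and the deposited arrays, c-Fos 1 most of all, do not share one. Of 33297 probe sets, 21214 had an annotation entry, 19460 of them with 1 gene symbol, 1754 with several, which were left out; 12083 had none. 19429 were updated by gene ID to RefSeq symbols. For 769 genes with several probe sets the one of highest mean level was kept, leaving 18417 genes. The number of arrays limits the precision.

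Groups were compared with limma 3.58.1 (lmFit, eBayes) in R 4.3.3, with a mean per group, on the 6 SKOV3 culture arrays, and, for tumours, OVCAR8 and the differences of effects, on 12 arrays each. A gene was called at an adjusted p under 0.05, by the Benjamini-Hochberg method across the 18417 genes. The script was tested on simulated data. No arrays were identical (smallest SD of a difference between replicates 0.12). Named were FOS, the AP-1 subunits, up to 25 largest called rises and falls with groups that do not overlap (passing over small RNAs, pseudogenes, LOC entries and open reading frames) and up to 4 called members of each gene list. The members and lists were chosen with earlier results of these data known. Promoter windows of 300 bases from RefSeq GRCh38.p14 matched 14239 genes by symbol or gene ID. Alternatives were quantile normalization, array weights, an intensity trend, a replicate block, the mean of probe sets, a filter at the 25th percentile of level, larger fits and leaving out each array.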

Additional observations from a re-analysis of the deposited data

Results flagged for a closer look

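The effect of c-Fos in SKOV3 cultures differed from that in SKOV3 tumours for 163 genes by the test of the difference itself. Among FOS and the 10 largest rises and 10 largest falls of the cultures, these were ADM (culture effect minus tumour effect 3.51), PTGIS (-5.36), AKR1C2 (-2.94, adjusted p = 0.0269) and AMTN (-5.60).

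It differed from the effect in OVCAR8 cultures for 909 genes. Of the same 21 genes, the SKOV3 effect exceeded the OVCAR8 effect for ANKRD30B (4.32), FGF5 (4.50), IL7R (3.03), KIF5C (3.03), TMPRSS15 (2.70), LEF1 (4.50), SRGN (2.92) and COPZ2 (2.59). It lay below the OVCAR8 effect for CP (-7.63), SPP1 (-6.75), C3 (-6.11), AKR1C3 (-5.48), PTGIS (-5.60), AKR1C2 (-5.65), VCAN (-3.01), KYNU (-5.61), MAL2 (-2.77) and AMTN (-5.42). Like CP, SPP1 and C3, 5 of these were already low in OVCAR8 controls. Their control means were 4.16 for KYNU, 4.27 for AMTN, 5.72 for AKR1C3, 6.71 for PTGIS and 6.76 for AKR1C2. A fall of the SKOV3 size could not be seen from such levels. VCAN and MAL2 had OVCAR8 control means of 8.66 and 9.54, also below their SKOV3 control means of 12.53 and 12.68. Their c-Fos means were 5.78 and 6.63 in OVCAR8 and 6.64 and 6.99 in SKOV3. The part of the lower OVCAR8 control level in these 2 differences of effects was not tested. The OVCAR8 groups carry different dates, so date and group cannot be told apart in that line. The groups of 3 arrays were too small for a test of single arrays far from the rest.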

How the results depend on the processing

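The 343 calls of the 6-array fit became 9229 with array weights (65.5% higher; c-Fos 1 had a weight of 0.0204), 4497 in a fit of all 24 arrays (49.5%), 1655 in one of the 12 culture arrays (32.7%) and 95 to 4256 when 1 array was left out. In alternatives chosen after seeing the data, leaving out c-Fos 1 and another array gave 2183 to 9727, and quantile normalization without c-Fos 1 4443. The 9727 came from a fit with c-Fos 2 as the only c-Fos array. Its spread came from the controls alone, so no conclusion is drawn from that count. With 1 control left out beside c-Fos 1, the counts were 2183 to 2301. The 1313 calls in SKOV3 tumours became 6370 with array weights, 2949 with 24 arrays and 758 to 4718 without 1 array. The 461 in OVCAR8 cultures became 893 with quantile normalization, 9009 with array weights, 775 with 24 arrays and 187 to 5533 without 1 array. The 163 differences between culture and tumour became 7453, 1051 and 59 to 1325 with array weights, 24 arrays and without 1 array, and the 909 between lines became 1601 with quantile normalization, 9371, 1820 and 537 to 6362. Replicate numbers did not pair the arrays (correlations of same-numbered deviations -0.175, -0.069 and -0.049); with a replicate block the counts were 416, 1118, 312, 98 and 690. FOSL2 turned to 0.27 with quantile normalization, 0.43 with array weights (adjusted p = 0.00686) and between -0.40 and 0.25 without 1 array (0.25 without c-Fos 1), MAFF to -0.10 with array weights and between -0.19 (without c-Fos 1) and 0.57 without 1 array, and RPL10A to 0.01 with array weights; of these values only that of FOSL2 with array weights was called. The cause of these moves was not tested.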
